A study of Homo sapiens with 6 samples.

Results

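Transcripts of the bone morphogenetic protein (BMP) pathway were examined in U251MG cells, a human glioblastoma astrocytoma line, with and without CRISPR-Cas9 targeting of NUAK2. The set held 10 genes of the 28395 in the count table: the ligands BMP4, BMP7, GDF5 and GDF6, the antagonists NOG and GREM1, and the targets ID1, ID2, ID3 and ID4. These genes were chosen on the difference between the NUAK2-CR and WT libraries themselves, so their levels and fold changes are given as a description, without p-values. The bulk RNA-seq data comprised 3 libraries labelled with the WT genotype and 3 labelled NUAK2-CR, all from the same line, with no treatment or time given in the labels. Per the study's methods, the line was kept in DMEM with fetal bovine serum, and NUAK2-CR lines were clones grown after lentiviral delivery of a NUAK2 guide in GFP and mCherry vectors and sorting for both colours. The labels do not say whether the 3 NUAK2-CR libraries came from 1 clone or several, or whether replicates were separate cultures. The p-values therefore measure only the spread between these libraries, which may be technical. The methods describe no vector control for the U251 WT cells. Effects of NUAK2 targeting, of lentiviral delivery and sorting, and of clonal origin cannot be told apart.

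BMPs are secreted dimers of the TGF-beta superfamily that signal through type I and type II receptor kinases to SMAD1, SMAD5 and SMAD9, which enter the nucleus with SMAD4. Extracellular antagonists such as noggin and gremlin bind the ligands and keep them from their receptors. The ID genes are immediate transcriptional targets of the pathway and encode helix-loop-helix proteins without a DNA-binding region, which sequester E proteins and hold back differentiation. In the nervous system BMPs are known for steering neural progenitors toward the astrocyte fate.

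Library totals ranged from 29648445 to 55574081 counts, with the WT libraries all deeper than the NUAK2-CR libraries. NUAK2 was measured at 51.3, 38.8 and 42.1 CPM, a count scaled to a common library total and corrected by TMM for library composition, in WT replicates 1 to 3 and at 21.3, 25.6 and 22.6 CPM in NUAK2-CR replicates 1 to 3. The groups did not overlap, and the transcript remained at 52.6% of the WT mean (log2 fold change -0.93, standard error 0.11, adjusted p = 1.8e-05, edgeR), beside a median of -0.42 over its 20 nearest tested genes. Protein was not measured in these libraries, and the paper reports NUAK2 deletion in its U251 clones by immunoblot and qPCR. Of the 10 glial and glioma markers listed, 8 had a mean of at least 1 CPM in WT and 7 in NUAK2-CR. AQP4 had at most 2 counts in any library, ALDH1L1 means of 0.243 and 0.462 CPM, and S100B, a glial calcium-binding protein, fell from 4.2 to 0.676 CPM. The summed level of this list was between 8712 and 9648 CPM in WT and between 3835 and 4007 CPM in NUAK2-CR. It included GFAP, the astrocyte filament protein, at 2355 ± 146 CPM (SD, n = 3) in WT and 399 ± 30.1 CPM (SD, n = 3) in NUAK2-CR. Within the list 6 markers fell and 1, EGFR, rose, from 94.6 to 153 CPM. The 9 markers of other cell types summed to between 22.2 and 23.9 CPM in WT and between 8.2 and 9.8 CPM in NUAK2-CR, and PTPRC and MOG had at most 3 counts in any library. Of these 9, CD68 (18.2 to 6.04 CPM) and MBP (3.35 to 0.842 CPM) fell and PECAM1 (0.0118 to 0.422 CPM) rose. The part of these shifts in the results below was not tested.

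Across all genes, 14873 passed the filter on low counts and were tested with edgeR's quasi-likelihood test. Of the 10 genes examined, 9 were tested. GREM1 had no count in any library, which allows up to 3 counts in each. All 9 tested genes had an adjusted p-value under 0.05, against 54.5% of all tested genes. Of them, 4 were higher in NUAK2-CR, against 26.3% of all tested genes, and 5 were lower, against 28.2%. With an absolute log2 fold change over 2 as well, 4 were higher, against 1.89%, and 3 were lower, against 2.83%. WT and NUAK2-CR libraries did not overlap for any of the 9, and the same held for 61.4% of all tested genes. Since the genes were chosen on this contrast, nothing is read from these counts.

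**Figure D1:**
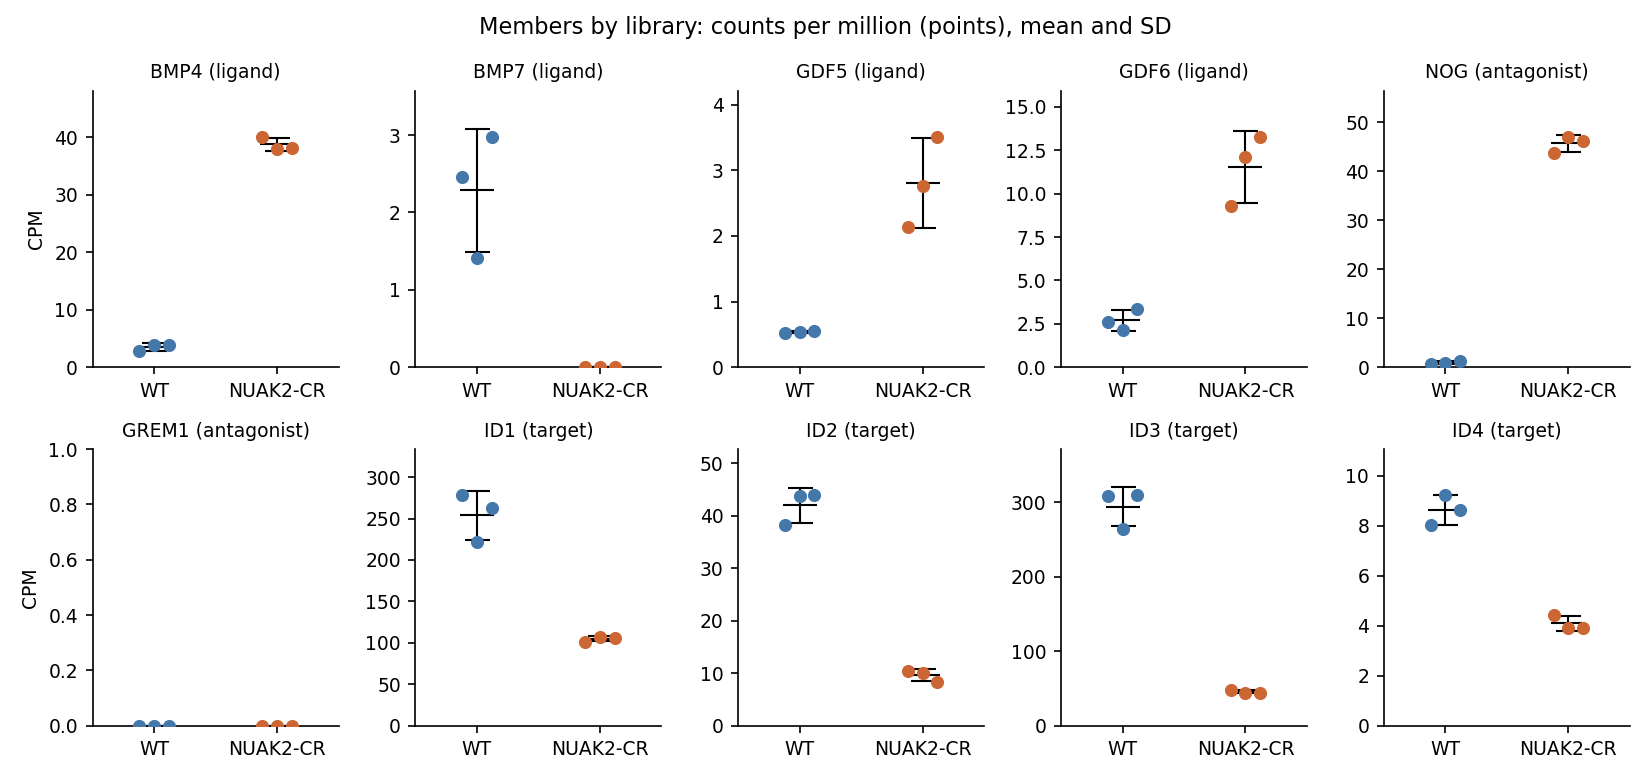
Level (CPM, linear axis from 0, scaled separately for each gene) of the 10 genes in each WT (blue) and NUAK2-CR (orange) library. Points are libraries and the bars give mean and SD (n = 3); the WT and NUAK2-CR points are apart for every gene but GREM1, which is at 0 throughout.

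The ligands did not move together. BMP4, which patterns dorsal tissue and is a known inducer of astrocyte differentiation, was detected at 2.78, 3.91 and 3.84 CPM in WT replicates 1, 2 and 3 and at 40.1, 38.0 and 38.2 CPM in the NUAK2-CR replicates. Every NUAK2-CR library thus lay far above every WT library, and the mean was 11-fold higher (log2 fold change 3.48, standard error 0.13). In bulk RNA a change in the number of expressing cells and in RNA per cell cannot be told apart. BMP4 (gene 652) lies on the minus strand of chromosome 14 of GRCh38, from 53949736 to 53956891, and a long noncoding RNA gene that was not used here overlaps it on the opposite strand. The authors counted with featureCounts at default parameters, under which strand is ignored, so strand was not used to separate reads of such overlapping genes.

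BMP7, a ligand with known roles in kidney, eye and cortical development, went the opposite way. Its raw counts were 139, 55 and 104 in the WT libraries, or 2.46, 1.41 and 2.98 CPM. No count was found in any NUAK2-CR library, where the floor of 3 counts corresponds to between 0.0878 and 0.102 CPM. Set against the mean of that floor, the NUAK2-CR level was at least 24.0-fold under the WT mean of 2.29 CPM. BMP7 (gene 655) lies on the minus strand of chromosome 20, from 57168753 to 57266641. Its antisense gene BMP7-AS1 had 4 counts in WT replicate 1 and none elsewhere.

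GDF5 and GDF6, closely related ligands of joint and skeletal development, were also higher in NUAK2-CR. GDF5 was measured at 0.514, 0.54 and 0.545 CPM in WT and at 2.13, 2.77 and 3.51 CPM in NUAK2-CR. Its 3 WT values were nearly alike while its NUAK2-CR values spread over a wider range, and the mean was 5.26-fold higher (log2 fold change 2.39, standard error 0.29). GDF6 was measured at 2.62, 2.16 and 3.35 CPM in WT and at 9.28, 12.1 and 13.3 CPM in NUAK2-CR. The groups stayed apart, with a 4.26-fold higher mean (log2 fold change 2.10, standard error 0.19). This value was under 2 without WT replicate 2, at 1.96, and without NUAK2-CR replicate 3, at 1.98. GDF5 (gene 8200, minus strand) lies on chromosome 20 from 35433347 to 35454749, where the antisense gene GDF5-AS1, which was not used here, overlaps it, and GDF6 (gene 392255, minus strand) on chromosome 8 from 96142333 to 96160806.

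Per length, which allows levels to be compared between genes, the 4 ligands summed to 2.49 ± 0.358 CPM per kilobase of exon (SD, n = 3) in WT and to 16.7 ± 0.502 (SD, n = 3) in NUAK2-CR, a 6.71-fold difference. BMP4 made up 45.8% ± 7.83 of this ligand pool in WT and 75.1% ± 4.17 in NUAK2-CR (SD, n = 3 each). GDF6 went from 29.2% ± 3.50 to 18.6% ± 2.84, and BMP7 from 16.8% ± 4.8 to no contribution. The share of GDF5 was small in both groups, at 8.23% ± 0.952 and 6.35% ± 1.38, and its libraries overlapped between the groups. These 4 ligands were chosen on the contrast and leave out BMP2, which stood at 1.15 ± 0.0817 CPM per kilobase in WT, close to BMP4, and at 1.34 ± 0.0746 in NUAK2-CR. Summed over all 18 listed ligands, the pool was 4.67 ± 0.61 CPM per kilobase in WT and 18.9 ± 0.317 in NUAK2-CR (SD, n = 3 each), a 4.04-fold difference, and BMP4 made up 24.3% ± 3.78 of it in WT and 66.4% ± 2.83 in NUAK2-CR.

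NOG encodes noggin, the classical BMP antagonist, which binds BMP4 tightly and also blocks GDF5 and GDF6. It was barely detected in WT, at 0.602, 0.874 and 1.23 CPM from 34, 34 and 43 counts. In NUAK2-CR it reached 43.8, 47.1 and 46.2 CPM from 1294, 1464 and 1580 counts. All NUAK2-CR libraries lay within a narrow band, and the mean was 50.6-fold higher than in WT (log2 fold change 5.72, standard error 0.17). NOG (gene 9241) is a gene on the plus strand of chromosome 17, from 56593699 to 56595611, with no overlapping gene in GENCODE v44. Per length, its mean level was above that of 40.2% of the 18903 protein-coding genes in WT and above that of 90.8% in NUAK2-CR. The corresponding values for BMP4 were 46.4% and 81.9%.

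NOG transcript was also compared with the ligand pool within each library. The ratio of NOG to the sum of the 4 ligands, both as CPM per kilobase, was 0.140, 0.198 and 0.222 in WT and 1.41, 1.48 and 1.4 in NUAK2-CR. Per length, noggin transcript was thus the minor component in each WT library and exceeded the sum of these 4 in each NUAK2-CR library. In CPM, not divided by length, NOG stood at 43.8, 47.1 and 46.2 in NUAK2-CR replicates 1 to 3. BMP4 (40.1, 38 and 38.2) and GDF6 (9.28, 12.1 and 13.3) together were above it in each. The excess in NUAK2-CR thus depended on the scaling by exon length. Per length over all 18 listed ligands, the ratio was 0.0994 ± 0.023 in WT and 1.27 ± 0.0415 in NUAK2-CR (SD, n = 3 each). Other antagonists and modulators were left out of these ratios. FSTL1 (means of 51.7 and 69.3 CPM per kilobase in WT and NUAK2-CR), CRIM1 (37.3 and 36.6) and TWSG1 (22.2 and 30.1) each exceeded the 18-ligand pool in both groups. FSTL3 (18.2 and 17.7) did so in WT only, and the others listed were under the pool in both. The ratio concerns transcripts only, since protein was not measured in these libraries. GREM1 (gene 26585, chromosome 15, 32718004 to 32745106, plus strand), which encodes gremlin 1, another secreted BMP antagonist, was at 0 in every library, as was its antisense gene GREM1-AS1.

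All 4 ID genes were lower in NUAK2-CR, by different amounts. ID3 went from 309, 264 and 309 CPM in WT to 48.4, 44.2 and 44.3 CPM in NUAK2-CR, or 15.5% of the WT mean (log2 fold change -2.69, standard error 0.08). ID2 went from 38.2, 43.9 and 44 CPM to 10.5, 10.1 and 8.37 CPM, or 23.0% of WT (log2 fold change -2.12, standard error 0.11). The highest NUAK2-CR library was far under the lowest WT library for both genes.

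ID1 was measured at 278, 221 and 262 CPM in WT and at 101, 107 and 106 CPM in NUAK2-CR, or 41.2% of WT (log2 fold change -1.28, standard error 0.09). ID4, the lowest of the family per length, went from 8.04, 9.23 and 8.65 CPM to 4.43, 3.92 and 3.92 CPM, or 47.4% of WT (log2 fold change -1.08, standard error 0.14). The ID1 and ID4 groups were also apart, with smaller log2 fold changes than those of ID2 and ID3. ID1 (gene 3397) lies on chromosome 20 from 31605289 to 31606510, ID2 (gene 3398) on chromosome 2 from 8682056 to 8684461, and ID4 (gene 3400) on chromosome 6 from 19837370 to 19842197, all on the plus strand, and ID3 (gene 3399) on the minus strand of chromosome 1 from 23557926 to 23559501. ID2 is overlapped on the opposite strand by ID2-AS1, whose WT libraries held 34, 24 and 32 counts and whose NUAK2-CR libraries held 3, 13 and 15. The ID2 counts beside them were 1534 to 2157 and 286 to 315. ID4 is likewise overlapped by LNC-LBCS, which was not used here.

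The 250 bases upstream of the annotated start of each ID gene are shown because SMAD proteins act on target genes through DNA, and these were the 4 targets that were lower together. Sequences are from RefSeq (GRCh38.p14), written 5′ to 3′ on the strand of the gene, and capitals mark GTCT, the core of the SMAD-binding element, and its reverse complement AGAC. They lie at chr20:31605039-31605288 on the plus strand for ID1, chr2:8681806-8682055 on the plus strand for ID2, chr1:23559502-23559751 on the minus strand for ID3 and chr6:19837120-19837369 on the plus strand for ID4.
ID1: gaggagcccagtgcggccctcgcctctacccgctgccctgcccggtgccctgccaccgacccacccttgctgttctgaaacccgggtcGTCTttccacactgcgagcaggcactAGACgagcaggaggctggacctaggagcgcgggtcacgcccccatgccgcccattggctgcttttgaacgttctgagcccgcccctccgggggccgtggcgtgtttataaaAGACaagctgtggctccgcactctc
ID2: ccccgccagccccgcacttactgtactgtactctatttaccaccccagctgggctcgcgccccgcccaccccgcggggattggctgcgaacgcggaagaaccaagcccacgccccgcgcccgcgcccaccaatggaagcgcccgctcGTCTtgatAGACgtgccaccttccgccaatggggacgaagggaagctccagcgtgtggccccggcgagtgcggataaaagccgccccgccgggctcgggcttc
ID3: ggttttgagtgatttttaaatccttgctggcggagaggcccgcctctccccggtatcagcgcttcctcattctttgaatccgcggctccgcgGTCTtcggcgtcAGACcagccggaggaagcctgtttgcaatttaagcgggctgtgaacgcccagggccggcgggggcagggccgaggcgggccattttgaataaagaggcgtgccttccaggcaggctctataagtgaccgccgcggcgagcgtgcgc
ID4: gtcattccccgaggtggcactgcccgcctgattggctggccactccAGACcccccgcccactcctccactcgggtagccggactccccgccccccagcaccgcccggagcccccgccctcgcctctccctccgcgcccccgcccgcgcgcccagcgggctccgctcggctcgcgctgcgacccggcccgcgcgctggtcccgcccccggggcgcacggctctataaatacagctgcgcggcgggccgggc

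Matches to GTCT on either strand began 162, 136 and 25 bases upstream of the start in ID1, 103 and 95 bases upstream in ID2, 158 and 146 bases upstream in ID3 and 204 bases upstream in ID4. This 4-base core is common, and 84.0% of the 35116 promoter windows of 300 bases (250 before to 50 after the start) in the same table held it on either strand. In ID1, ID2 and ID3 a GTCT was followed by an AGAC, with 22, 4 and 8 bases between them, and ID4 had no such pair. A pair on the gene's strand with at most 25 bases in between was present upstream in 5.3% of the windows; it was looked for after these sequences had been read. GGCGCC, the GC-rich SMAD1 and SMAD5 palindrome, was in none of the 4 ID windows, in 19.2% of all windows, and in windows of BMP4 and GREM1. The E-box CANNTG, bound by the E proteins that ID proteins sequester, occurred in 68.7% of all windows and was found upstream of ID2, at 205 bases, and of ID4, at 21 bases. None of the 3 motifs overlapped another within the ID windows. A match describes the letters of the window and not binding, and sequence outside the windows was not searched. The table held windows for 7 of the 10 genes, the others being BMP7, GDF6 and NOG.

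Per length, ID1 to ID4 together summed to 451, 378 and 442 CPM per kilobase in the WT libraries and to 120, 122 and 121 in the NUAK2-CR libraries, so that 28.5% of the pool remained. The NUAK2-CR libraries were nearly identical to each other in this sum. The make-up of the pool differed as well. ID1 and ID3 contributed 48.5% ± 1.31 and 46.4% ± 0.602 in WT, and 70.3% ± 1.76 and 25.2% ± 1.41 in NUAK2-CR (SD, n = 3 each). The share of ID1 was above that of ID3 in each WT library as well, by a smaller margin. ID2 contributed 4.52% ± 0.709 and 3.61% ± 0.419, with overlapping libraries. ID4 was the smallest part, at 0.532% ± 0.0883 and 0.875% ± 0.0665.

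**Figure D2:**
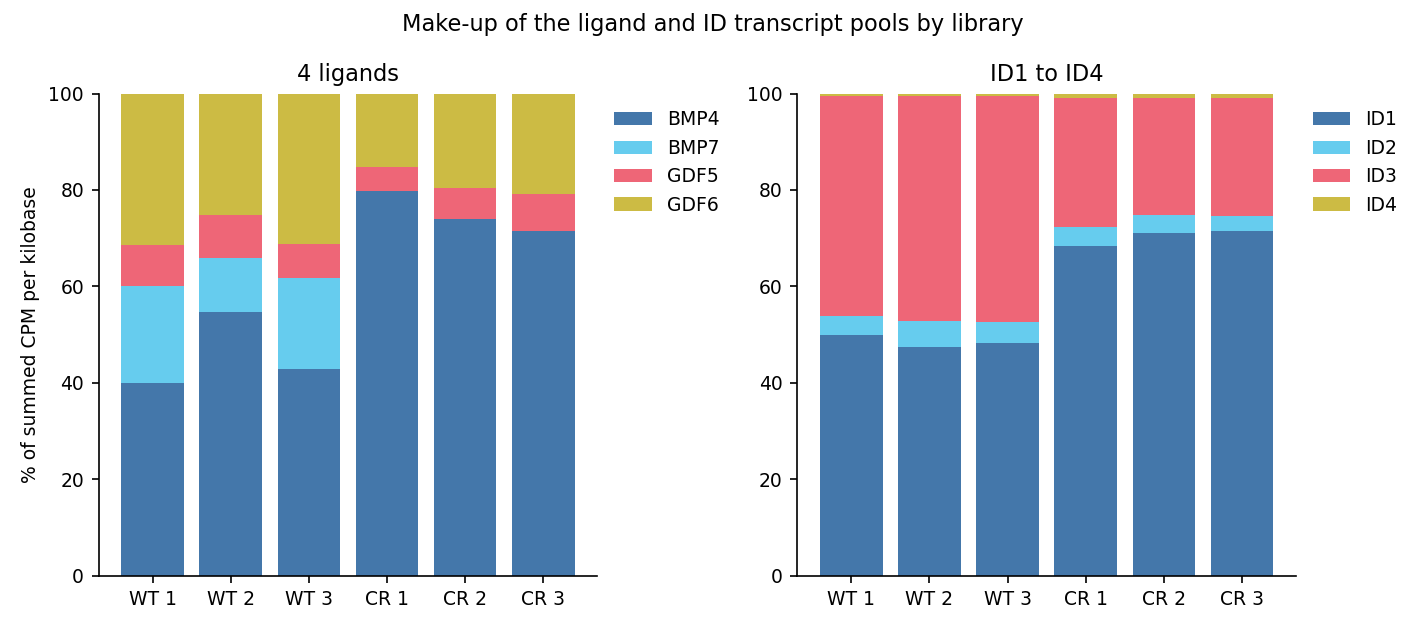
Share (%, stacked bars) of each gene in the summed CPM per kilobase of exon of the 4 ligands (left) and of ID1 to ID4 (right), with 1 bar per WT and NUAK2-CR (CR) library. BMP7 is absent from the ligand bars of NUAK2-CR, and ID1 takes 68.3% to 71.5% of the ID bars in NUAK2-CR against 47.5% to 50% in WT.

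The order of the levels per kilobase differed between the groups. In WT it ran from ID1 (206 ± 23.9 CPM per kilobase, SD, n = 3) and ID3 (197 ± 17.4), whose libraries overlapped, to ID2 (19.0 ± 1.49) and ID4 (2.23 ± 0.154), followed by BMP4 (1.13 ± 0.204), GDF6 (0.730 ± 0.162), NOG (0.472 ± 0.165) and BMP7 (0.421 ± 0.147), each of which overlapped its neighbour in this order, and by GDF5 (0.202 ± 0.00636). Within this set, every ID gene was therefore above every ligand and antagonist in WT. This did not hold for all antagonists and modulators listed outside the set. In WT, FSTL1 (51.7 ± 5.29), CRIM1 (37.3 ± 3.25) and TWSG1 (22.2 ± 5.39) had means above that of ID2. FSTL3 (18.2 ± 1.65) was above ID4, and the rest of that list had means under that of ID4. In NUAK2-CR, ID1 (84.9 ± 2.41) and ID3 (30.5 ± 1.59) were followed by NOG (23.9 ± 0.887) and BMP4 (12.5 ± 0.374), which now stood above ID2 (4.36 ± 0.507). GDF6 (3.11 ± 0.555) came next, and GDF5 (1.07 ± 0.262) and ID4 (1.06 ± 0.0764) had overlapping libraries. Among the 18903 protein-coding genes, ID3 went from above 99.5% to above 93.2%, ID1 from above 99.5% to above 98.3%, and ID2 from above 87.6% to above 62.8%.

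**Figure D3:**
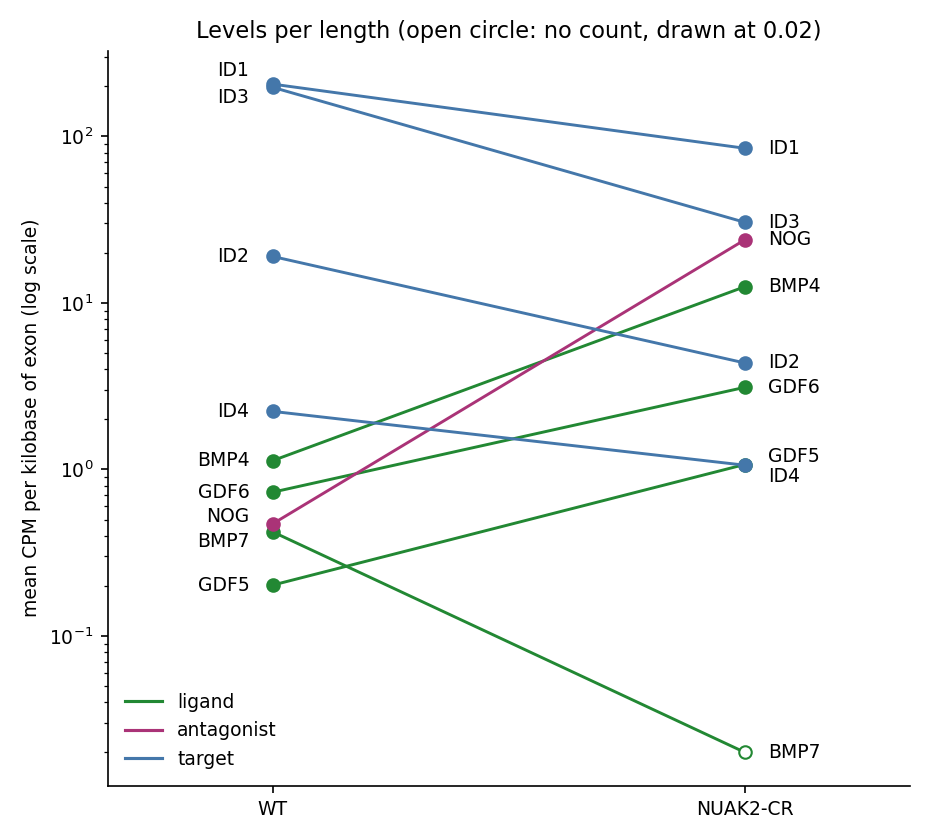
Mean level per length (CPM per kilobase of exon, log axis) of the 9 detected genes in WT and NUAK2-CR, joined by a line per gene and coloured by role; GREM1 is left out and BMP7, with no count in NUAK2-CR, is drawn at 0.02 as an open circle. The ID lines descend while those of NOG, BMP4, GDF5 and GDF6 rise, and NOG and BMP4 cross ID2.

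Neighbouring genes were examined because chromosomal gains or losses in a line can shift whole regions. For each gene the median log2 fold change of the 20 nearest tested genes, 10 on each side, was taken. These medians lay between 0.02 and 0.25 for BMP4, BMP7, GDF5, GDF6, ID1, ID2 and ID4. They were -0.43 for NOG, where 17 of the 20 neighbours were lower in NUAK2-CR, and -0.48 for ID3, where 15 of the 20 were lower. Less the neighbours' median, the log2 fold change was 6.15 for NOG, -2.21 for ID3, -2.20 for ID2, -1.52 for ID1 and 3.28 for BMP4. NOG, BMP4, GDF5, GDF6, ID2 and ID3 lay outside the range of their neighbours, and ID1 and ID4 within it. Since the genes were chosen on this contrast and their neighbours were not, nothing is read from this. BMP7, whose fold is a bound, was not set against such a range, and the values of its 20 neighbours ran from -5.63 to 1.03. Copy number was not measured.

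**Figure D4:**
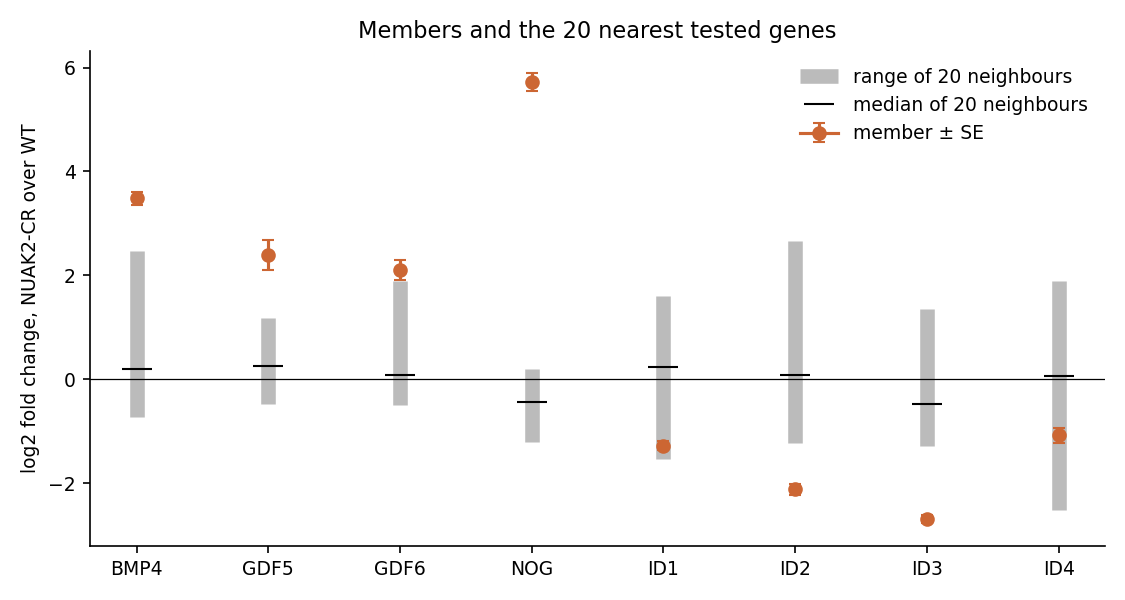
Log2 fold change (NUAK2-CR over WT) of 8 genes (orange, ± SE) beside the median (black) and range (grey) of the 20 nearest tested genes on the same chromosome; BMP7, whose fold is a lower bound, is left out. NOG stands at 5.72 over neighbours with a median of -0.43, while ID1 and ID4 lie within the grey range.

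The rest of the pathway was examined with lists by role, chosen with earlier results of these data known. Shares called in these lists are therefore given as a description. The lists held 82 further genes, of which 58 were tested. Of these, 38 had an adjusted p-value under 0.05 in edgeR's test, 24 higher and 14 lower in NUAK2-CR, or 65.5% of those tested against 54.5% of all tested genes. Their median log2 fold change was 0.27, beside -0.01 over all tested genes. Most of these changes were small, with 1 gene higher and 3 lower by more than 2 on the log2 scale.

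Among the other ligands, few were detected. BMP2, a close relative of BMP4, was measured at 4.08 ± 0.290 CPM in WT and 4.73 ± 0.265 CPM in NUAK2-CR (SD, n = 3 each), and did not pass the test (log2 fold change 0.22, standard error 0.16, adjusted p = 0.275, edgeR). BMP8B was the 1 of 5 tested ligands that changed (20% called, against 54.5% of all tested genes), from 1.78 ± 0.406 to 0.313 ± 0.151 CPM (log2 fold change -2.51, adjusted p = 0.000203, edgeR). The other 9 listed ligands were not tested, and 5 of them had no count in any library. The list's median log2 fold change was -0.06, and with 1 library left out it ranged from -0.63, without NUAK2-CR replicate 1, to 0.17, without NUAK2-CR replicate 3.

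Of 11 tested antagonists and modulators, 4 rose and 2 fell in NUAK2-CR, or 54.5% called, the same share as over all tested genes (54.5%). FST, which encodes follistatin, a binder of activins and of some BMPs, rose from 4.19 ± 0.981 to 31.2 ± 1.48 CPM (log2 fold change 2.91 ± 0.14 SE, adjusted p = 7.2e-09, edgeR). BMPER, a secreted BMP-binding modulator, rose from 2.26 ± 0.422 to 5.32 ± 0.698 CPM (log2 fold change 1.24, adjusted p = 0.000228, edgeR). FSTL1, a follistatin-like glycoprotein, rose with a log2 fold change of 0.42, and TWSG1 with 0.44, the latter not past the threshold without NUAK2-CR replicate 3 (edgeR adjusted p = 0.0634). In contrast, CHRDL1, a chordin-like BMP antagonist, fell from 7.88 ± 1.37 to 0.568 ± 0.325 CPM (log2 fold change -3.78, standard error 0.33, adjusted p = 1.18e-06, edgeR). DAND5 had a log2 fold change of -1.28, and its call was lost without WT replicate 3 or any NUAK2-CR library, with edgeR adjusted p between 0.0545 and 0.163. CHRD, which encodes chordin, had 2.09 ± 0.665 and 1.87 ± 0.395 CPM and did not pass the test. The list's median log2 fold change was 0.42, but it was -0.03 with no filter on low counts, -0.02 with DESeq2 and 0.22 without WT replicate 1.

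Proteases that mature the ligands or cleave their antagonists were mostly lower, with 4 of 6 called lower and 1 higher, or 83.3% called against 54.5% of all tested genes. TLL2, a tolloid-like metalloprotease of the family that cleaves chordin, fell from 5.42 ± 1.11 to 0.258 ± 0.128 CPM (log2 fold change -4.40, standard error 0.32, adjusted p = 2.41e-07, edgeR), whereas its relative TLL1 rose with a log2 fold change of 0.86 (adjusted p = 0.00172, edgeR). BMP1, which despite its name is a tolloid protease and not a ligand, had a log2 fold change of -0.39. The proprotein convertases PCSK5 and FURIN, which cut ligand precursors, had log2 fold changes of -1.63 and -0.55. The median of the list was -0.47.

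Receptors and co-receptors were mostly higher in NUAK2-CR. Of the 10 tested, 7 rose and 1 fell, or 80% called against 54.5% of all tested genes, with a median log2 fold change of 0.70. Among type I receptors, BMPR1A rose from 37.5 ± 4.63 to 54.2 ± 4.44 CPM (log2 fold change 0.53, adjusted p = 0.000545, edgeR), BMPR1B had a log2 fold change of 0.72 and ACVR1 of 0.77. The type II receptor BMPR2 rose from 64.3 ± 6.26 to 110 ± 7.19 CPM (log2 fold change 0.78, standard error 0.08, adjusted p = 7.34e-06, edgeR), and ACVR2A had a log2 fold change of 0.69. The co-receptor ENG fell from 6.80 ± 1.02 to 2.57 ± 0.915 CPM (log2 fold change -1.41, adjusted p = 0.000239, edgeR).

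Among the SMADs and their regulators, 6 of 12 rose and 2 fell, or 66.7% called against 54.5% of all tested genes, with a median log2 fold change of 0.28. The receptor-activated SMAD1 rose from 31.0 ± 2.87 to 45.6 ± 1.11 CPM (log2 fold change 0.56, adjusted p = 0.000121, edgeR). SMAD5, its close relative, was at 87.9 ± 4.66 and 83.6 ± 3.97 CPM and did not pass the test (adjusted p = 0.403, edgeR). SMAD9 had a log2 fold change of -0.59 (adjusted p = 0.0285, edgeR), which was lost when WT replicate 1 or either of the NUAK2-CR replicates 2 and 3 was left out (adjusted p between 0.0764 and 0.12). SMAD4, the shared partner, rose with a log2 fold change of 0.34, and SMURF2, a ubiquitin ligase that acts on SMADs and receptors, with 0.70.

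The 2 inhibitory SMADs differed. SMAD6, which chiefly restrains BMP signalling and is itself a BMP target, had 21.2, 20 and 19.1 CPM in the WT libraries and 8.02, 8.68 and 7.08 CPM in the NUAK2-CR libraries. It fell with an adjusted p of 7.29e-07 by edgeR (log2 fold change -1.34 ± 0.11 SE). SMAD7, which also restrains TGF-beta signalling, rose from 2.29 ± 0.259 to 4.33 ± 1.08 CPM (log2 fold change 0.93, standard error 0.22, adjusted p = 0.0034, edgeR).

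Other known BMP targets were examined beside the ID genes. Of 13 such genes, all tested, 6 fell and 5 rose, or 84.6% called against 54.5% of all tested genes, so this list did not share the single direction of the ID genes. MSX2, a homeobox factor of BMP-patterned tissues, fell from 14.8 ± 0.892 to 5.04 ± 0.744 CPM (log2 fold change -1.55, adjusted p = 1.18e-06, edgeR). BAMBI, a pseudoreceptor induced by the pathway, fell from 8.54 ± 0.267 to 4.67 ± 0.255 CPM (log2 fold change -0.87, adjusted p = 0.000154, edgeR), and GATA2 had a log2 fold change of -0.93. With SMAD6, SMAD9 and DLX5 these made up the genes that fell. Those that rose were SMAD7, JUNB (log2 fold change 0.61, adjusted p = 3.9e-05, edgeR), RUNX2 (0.28), MSX1 (0.36) and ALPL (1.42). DLX5 lost its call without WT replicate 3 (edgeR adjusted p = 0.113) and without NUAK2-CR replicate 1 (0.105), and ALPL lost its call when the library left out was replicate 2 of WT (0.0556), replicate 2 of NUAK2-CR (0.0577) or replicate 3 of NUAK2-CR (0.0501). The log2 fold change of ALPL was 2.07 without WT replicate 3. The list's median log2 fold change was -0.27, and it lay at -0.02 without WT replicate 1, at -0.56 without NUAK2-CR replicate 2 and at -0.01 without NUAK2-CR replicate 3. GATA2, DLX5, RUNX2, MSX1, ALPL, DAND5, TWSG1 and FURIN were named after their values had been seen, to complete the short counts.

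The E proteins that ID proteins bind were detected in both groups. TCF3 rose from 196 ± 19.9 to 281 ± 9.70 CPM (log2 fold change 0.52, adjusted p = 0.000139, edgeR), while TCF4 and TCF12 had log2 fold changes of -0.15 and 0.03 and did not pass the test (adjusted p = 0.106 and 0.68, edgeR). TCF4 passed without WT replicate 3 (adjusted p = 0.0491, edgeR). TWIST1, a partner factor of mesenchymal cells, rose with a log2 fold change of 0.66 (adjusted p = 0.000869, edgeR). OLIG2 and NEUROD1, which drive oligodendrocyte and neuronal fates, had no count in any library. Of 10 listed factors 4 were tested and 2 of these rose, or 50% called against 54.5% of all tested genes.

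**Figure D5:**
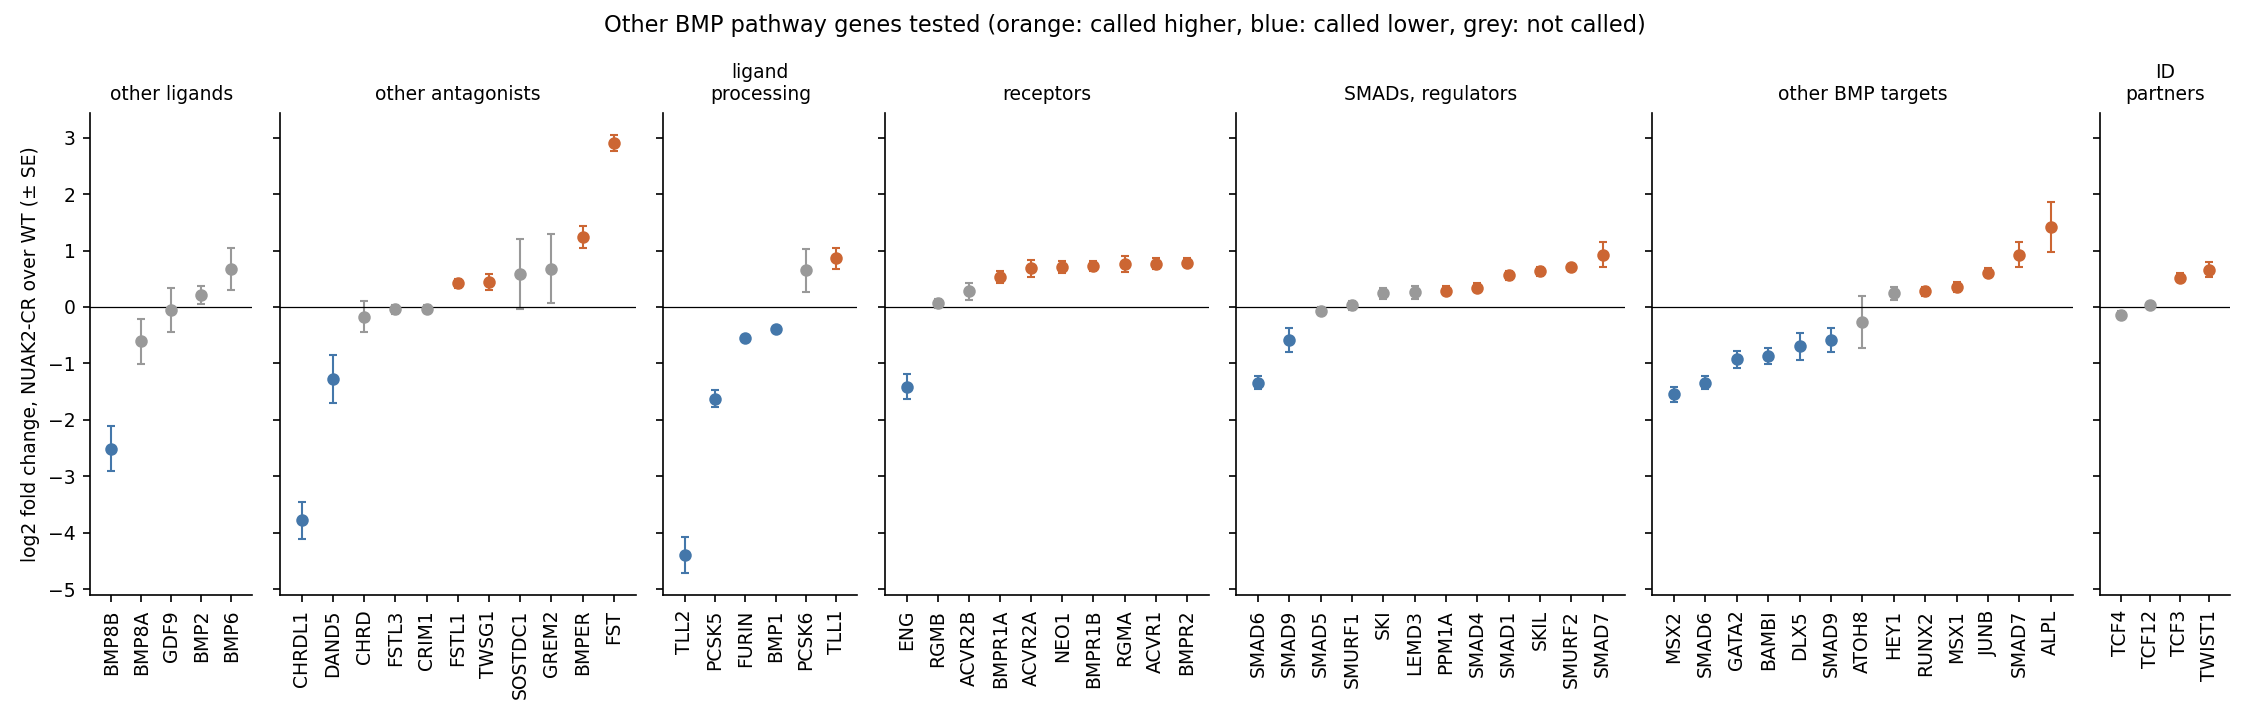
Log2 fold change (NUAK2-CR over WT, ± SE) of the tested BMP pathway genes outside the set of 10, by role; orange marks genes called higher, blue genes called lower (adjusted p under 0.05, edgeR) and grey genes not called. SMAD6, SMAD7 and SMAD9 appear both as SMADs and as targets. Receptors sit mostly near 0.70, while antagonists range from CHRDL1 at -3.78 to FST at 2.91.

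The genes whose profiles over the 6 libraries were most like that of NOG, by the root mean square distance of centred log2 CPM among 13032 genes with a mean of at least 1 CPM, were TNFRSF11B (0.27), POSTN (0.284) and CADPS (0.447). For ID3 they were RHOU (0.103), HSPB8 (0.109) and TINAGL1 (0.116). With 2 groups of 3 libraries this distance mainly ranks genes by how close their difference between the groups is.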

How the data were processed

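RNA from WT and NUAK2-CR U251MG cells was sequenced as poly(A)-selected, stranded paired-end libraries, 3 per group, and samples were grouped by their titles. The authors used Trimmomatic for trimming, HISAT2 for alignment (genome hg38) and featureCounts for counting, all at default parameters, and deposited the raw count of each gene. The featureCounts default ignores strand. The annotation is not given in the sources used here. NCBI identifiers were matched to RefSeq symbols for 27745 of 28395 rows, and exon lengths were taken from GENCODE v44.

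Counts were analysed in R 4.3.3 with edgeR 4.0.16 (filterByExpr, TMM, glmQLFit, quasi-likelihood F test, prior count 0.125) and Benjamini-Hochberg adjustment over 14873 genes. A gene was called at an adjusted p under 0.05. Standard errors were the log2 fold change over the root of F. CPM used TMM-scaled library sizes. The floor was 3 counts per library and covers counting error only. The fit was tested on simulated data before use. Alternatives were DESeq2 1.42.0, RLE and library-size scaling, no filter, at least 10 counts in every library, a prior count of 2, each library left out, a replicate block, thinning to 29648445 counts, subtraction of neighbouring genes and, chosen after seeing the data, sums over all 18 listed ligands. Figures were drawn in Python 3.11.15 with matplotlib 3.10.9.

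The 10 genes and the lists were chosen with earlier results of these data known. Named were those 10, NUAK2, 16 core pathway genes and, per list, called genes with an absolute log2 fold change over 2 and the 2 highest and 2 lowest called genes with a mean of at least 1 CPM, plus 8 stated in the text.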

Additional observations from a re-analysis of the deposited data

How the results depend on the processing

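The 8107 genes called were between 7190 and 8481 with each library left out, and 8077 with DESeq2. Of called genes, 702 had an absolute log2 fold change over 2, and 339 did under a minimum of 10 counts in every library. This follows from its construction, since genes with fewer than 10 counts in any library were no longer tested. BMP7, BMP8B, CHRDL1 and TLL2 were among them. The 38 pathway genes called were between 34 and 41 over all alternatives. Each of the 9 detected genes kept its sign under all its alternatives. The narrowest range was ID4, from -1.15 to -1.03, and NOG ranged from 5.45 to 6.15. The fitted value for BMP7 depends on the prior count and is not given. Of 504 alternative values for 39 named genes, 13 fell short of the threshold, 1 newly passed it and none reversed.

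With the replicate number as a block, 8167 genes and 41 pathway genes were called. Deviations from the group means of same-numbered libraries had correlations of 0.05, -0.08 and 0.09, and not every library correlated best with its own number, so that the numbers were not taken to pair the libraries.

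Low counts limit GDF5, with 19 to 29 counts per library in WT, and NOG, with 34 to 43 in WT. In NUAK2-CR they limit BMP8B (5 to 13 counts per library), CHRDL1 (6 to 25) and TLL2 (6 to 12). GREM1 could not be assessed beyond its floor of 3 counts.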
